A study of Mus musculus with 10 samples.

Results

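The transcriptome of the unperturbed kidney at embryonic day E13.5 was described from 4 of the 10 libraries of the series, those labelled wild type. The other 6 libraries come from *Foxd1GC* control kidneys and from kidneys without *Ntn1* in the stroma, and no comparison with them was made. RNA came from whole kidneys of mouse embryos of the strain labelled C57/b6, and the labels name no transgene or deletion for the wild-type animals. The legend that covers the study's RNA-seq plots counts single embryos, from several litters, as replicates, but the labels tie no wild-type library to an embryo or litter, so the spread between libraries may be partly technical. Levels were given as FPKM for 35663 gene entries. FPKM are fragments scaled by transcript length and a measure of library depth, and how that measure was set is not given in the sources used here. An entry was called on at 1 FPKM or more in all 4 libraries and off under 0.1 FPKM in all 4, and the rest lay between. Where 4 values are listed, they stand in the order of replicates 1 to 4. Values after ± are SD with n = 4. There is 1 group, so no test between groups was made.

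The mammalian kidney forms by an exchange of signals between several populations. Nephron progenitors cap the tips of the branching ureteric bud and turn into the epithelium of the nephron, the bud gives rise to the collecting system, and stromal progenitors at the periphery supply the interstitium and most mural cells. Endothelium, blood and macrophages enter or form alongside them, so RNA of a whole kidney is a mixture of all these cells. In such bulk RNA, fewer cells of a type and less RNA per cell cannot be told apart.

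In all, 12383 entries were on (34.7%), 16593 were off (46.5%) and 6687 lay between. Of the 21720 entries typed as protein coding, 11952 were on (55.0%), 5976 were off (27.5%) and 3792 lay between. The protein-coding genes that were on had a median level of 17.2 FPKM, with 10% of them at or under 3.02 FPKM and 10% at or above 90.3 FPKM. Each library had 13039 to 13129 entries at 1 FPKM or more. Low values of genes with a single transcript fell on whole steps. These put the depth used in the scaling at about 26.7 to 28.9 times 1000000 fragments a library. The number of fragments sequenced in a library may differ from it. At that depth 0.1 FPKM is 5.33 to 5.77 fragments of a transcript of 2000 bases. A count of 0 allows up to 3 fragments, which is 0.0520 to 0.0563 FPKM at that length, for counting error only.

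Replicate 3 stood apart before any gene was considered. Its values summed to 1002638 FPKM, against 795829, 805837 and 809645 in replicates 1, 2 and 4. The excess lay in short transcripts and was matched by a deficit in long ones. Among protein-coding genes averaging 10 FPKM or more, the median log2 ratio of replicate 3 to the mean of the other 3 libraries was 0.38 for the 343 genes with transcripts up to 600 bases. It was 0.01 at 2000 to 2500 bases and −0.39 for the 233 genes over 7000 bases. Replicate 3 was also the only library in which Y-linked genes exceeded 0.34 FPKM. *Eif2s3y* stood at 0.14, 0.18, 36.2 and 0.065 FPKM and *Ddx3y* at 0.022, 0.072, 30.5 and 0.039 FPKM. *Uty* and *Kdm5d* followed, with 14.9 and 14.4 FPKM in replicate 3 and at most 0.34 FPKM elsewhere. Whether the tilt with length and the Y-linked genes are related was not tested, and values without replicate 3 or centred by transcript length are given below where they bear on a result.

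**Figure D1:**
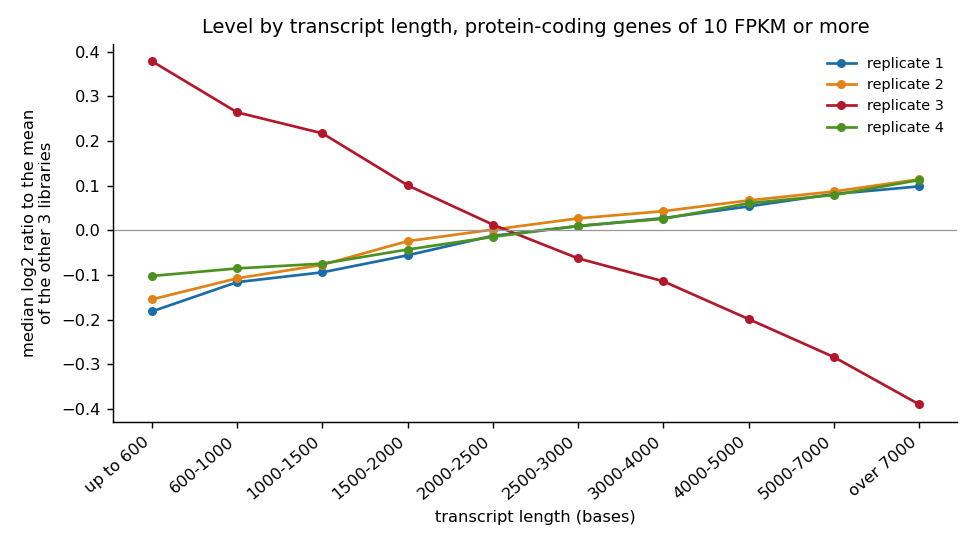
Median log2 ratio of each library to the mean of the other 3 (vertical axis) by class of transcript length in bases (horizontal axis), for protein-coding genes averaging 10 FPKM or more, 1 coloured line a replicate. Replicate 3 runs from 0.38 for the shortest class to −0.39 for the longest, and the other 3 lines lie between −0.18 and 0.11.

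Each of the 4 lineages that build the kidney was represented by its defining marker. *Six2*, the transcription factor that keeps nephron progenitors undifferentiated, was found at 65.3, 63.1, 77.4 and 84.7 FPKM, with a mean of 72.6 ± 10.2 FPKM. It ranked 1546 of the protein-coding genes by mean level. *Six2* lies on chromosome 17 from 85684277 to 85688274 on the minus strand (GRCm38).

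*Foxd1*, the transcription factor of cortical stromal progenitors, stood at 24.1, 21.3, 21.4 and 30.7 FPKM (24.4 ± 4.39) and ranked 4602 of the protein-coding genes. Its gene is on chromosome 13 from 98354242 to 98359305. *Ret*, the receptor tyrosine kinase through which ureteric tips receive *Gdnf*, stood at 16.03, 16.2, 14.1 and 17.2 FPKM (15.9 ± 1.31) and ranked 6262. It lies on chromosome 6 from 118151745 to 118197718 on the minus strand. *Pecam1*, an adhesion molecule of endothelial cell junctions, stood at 29.8, 28.0, 24.7 and 23.3 FPKM (26.4 ± 2.97) and ranked 4266, with its gene on chromosome 11 from 106654217 to 106750628 on the minus strand.

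*Six2* was above the other 3 markers in every library, since its lowest value of 63.1 FPKM exceeded their highest value, 30.7 FPKM for *Foxd1* in replicate 4. *Pecam1* and *Foxd1* overlapped, with *Foxd1* the higher of them in replicate 4 and the lower in replicates 1 to 3. *Foxd1* was above *Ret* throughout. Within a library, *Six2* was 2.72, 2.96, 3.61 and 2.76 times *Foxd1* (3.01 ± 0.41), and *Foxd1* was 1.53 ± 0.19 times *Ret*. The ratio of *Six2* to *Foxd1* was highest in replicate 3, the library low in long transcripts. The transcript length is 5064 bases for *Foxd1* and 1965.5 for *Six2*, and whether the tilt with length bears on this ratio was not tested. Replicate 4 had the highest *Six2*, *Foxd1* and *Ret* and the lowest *Pecam1*. These markers share little sequence with other protein-coding or pseudogene transcripts, the only types searched. No exact word of 31 bases of *Ret* or *Pecam1* occurred in those of another gene. The shares were 1.63% of the words of *Six2* and 1.23% of those of *Foxd1*.

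**Figure D2:**
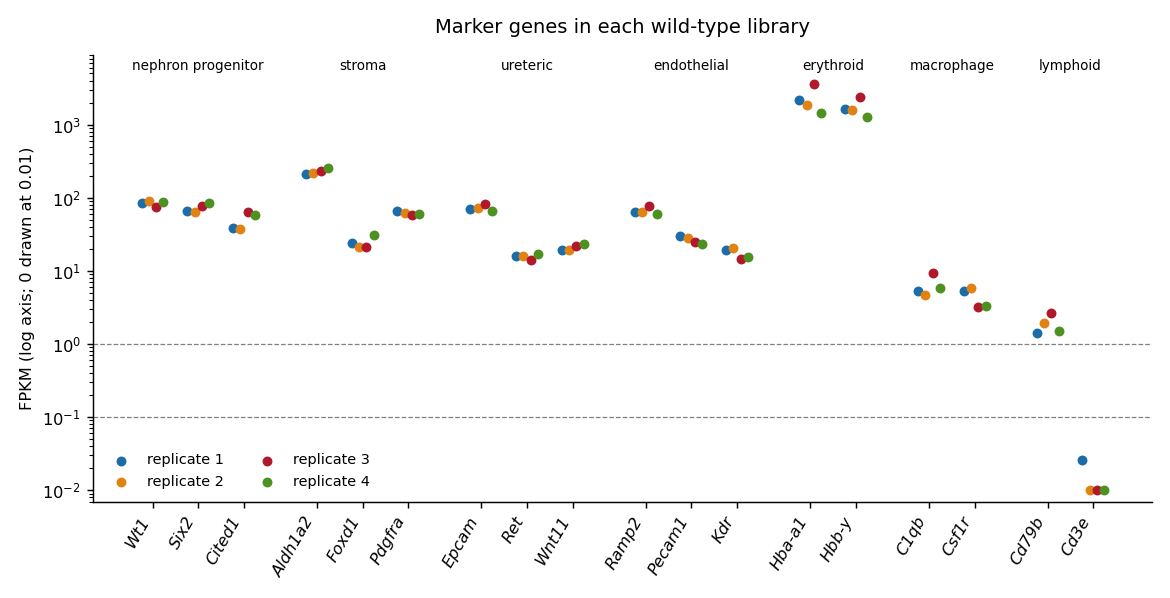
FPKM on a log axis for 18 marker genes (horizontal axis, grouped by cell type) in each of the 4 libraries, 1 coloured point a replicate, with dashed lines at 1 and 0.1 FPKM. The kidney markers sit between 14.1 and 256 FPKM in every library, the globins *Hba-a1* and *Hbb-y* between 1274 and 3631 FPKM, *C1qb* and *Csf1r* between 3.24 and 9.28 FPKM, *Cd79b* between 1.42 and 2.63 FPKM, and *Cd3e* under 0.1 FPKM.

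Most nephron progenitor genes were on at levels above the median of all genes. Of 18 listed genes 17 were on, against 55.0% of all protein-coding genes, and none was off. The median level was 41.1 FPKM, against 2.85 FPKM over all protein-coding entries. Over the members that were on it was 45.8 FPKM, against 17.2 FPKM over all protein-coding genes that were on. The CV is the SD between libraries as a percentage of the mean. Its median was 13.9% over the members that were on, against 10.9% over all protein-coding genes that were on. *Wt1*, the transcription factor at the head of metanephric mesenchyme fate, was the highest at 84.0, 91.4, 75.6 and 86.7 FPKM. *Spock2*, *Sall1*, *Pax2* and *Eya1* had means between 50 and 70 FPKM. *Gdnf*, the ligand that these cells send to *Ret* in the bud, stood at 21.3, 22.1, 17.6 and 25.5 FPKM, above *Ret* in each library.

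*Cited1*, which marks the least committed progenitors, stood at 38.3, 37.6, 64.2 and 57.4 FPKM, and *Crym* at 34.4, 38.5, 60.1 and 50.3 FPKM. Both were higher in replicates 3 and 4 than in replicates 1 and 2, with no overlap.

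The steps that follow induction were on throughout. All 14 genes of the renal vesicle list were on, against 55.0% of all protein-coding genes. Their median level of 16.2 FPKM was close to the 17.2 FPKM of all protein-coding genes that were on. *Ccnd1*, a G1 cyclin, led with 147, 152, 135 and 148 FPKM, and 28.1% of its words of 31 bases also occur in transcripts of the neighbour *LTO1*. *Wnt4*, the signal that turns induced mesenchyme into epithelium, stood at 15.97, 16.9, 12.2 and 12.9 FPKM. *Lhx1*, *Pax8* and *Jag1*, regulators of the vesicle and its patterning, had means between 20 and 30 FPKM. *Lef1*, a nuclear partner of Wnt signalling, was lower in replicates 3 and 4 (14.8 and 12.5 FPKM) than in replicates 1 and 2 (20.4 and 23.8 FPKM).

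Many genes of the finished nephron were below the limit for on, with exceptions in each list. Median levels were 0.93 FPKM for podocyte, 0.12 FPKM for proximal tubule and 0.30 FPKM for loop and distal tubule genes. The median over all protein-coding entries was 2.85 FPKM. Of the 13 podocyte genes 6 were on (55.0% of all protein-coding genes were), among them *Tcf21*, *Foxc2*, *Vegfa*, *Podxl* and *Synpo*. *Tcf21* and *Foxc2* are also known from mesenchyme, and the growth factor gene *Vegfa* from many tissues. *Tcf21* stood at 88.6, 79.7, 94.4 and 64.3 FPKM and *Foxc2* at 39.2, 38.6, 34.5 and 36.0 FPKM. *Vegfa* stood at 20.96, 22.3, 20.4 and 24.4 FPKM, *Podxl*, which coats podocytes and also endothelium, at 15.3, 15.6, 10.4 and 12.3 FPKM, and *Synpo* at 5.61, 10.2, 3.74 and 6.25 FPKM. *Synpo* was highest in replicate 2 and lowest in replicate 3. The slit diaphragm gene *Nphs1* lay between, at 0.21, 0.37, 0.50 and 0.45 FPKM.

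Of 15 proximal tubule genes 2 were on and 5 off (55.0% and 27.5% over all protein-coding genes), and 8 lay between. *Cdh6*, a cadherin of the early proximal segment, stood at 12.8, 13.2, 10.4 and 11.4 FPKM, and the water channel *Aqp1*, which red cells and endothelium also carry, at 2.63, 2.32, 3.02 and 2.02 FPKM. *Hnf4a*, the regulator of proximal maturation, stood at 1.72, 1.502, 1.46 and 0.67 FPKM and the endocytic receptor *Lrp2* at 1.34, 1.52, 0.85 and 0.85 FPKM. The transporters and enzymes of the working tubule, *Slc34a1*, *Slc5a2*, *Fbp1*, *Miox* and *Kap*, were off.

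Of the 12 loop and distal tubule genes 3 were on and 5 off (55.0% and 27.5% over all protein-coding genes), and 4 lay between. The genes that were on, *Wfdc2* (101, 101, 146 and 112 FPKM), *Sim1* and *Tfap2b*, are also known from other epithelia or from the nephric duct. *Slc12a1*, *Slc12a3*, *Kcnj1*, *Cldn16* and *Pvalb*, which serve salt and ion transport in the mature segments, were off. *Umod*, the most abundant protein of adult urine, was at 0.17 to 0.24 FPKM.

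The ureteric bud was on at both of its ends. In the tip list 11 of 12 genes were on, against 55.0% of all protein-coding genes, with a median level of 16.7 FPKM. Over the tip genes that were on it was 17.5 FPKM, close to the 17.2 FPKM of all protein-coding genes that were on. *Etv4* and *Etv5*, transcription factors downstream of *Ret*, stood at 52.4, 52.2, 52.4 and 63.2 FPKM and at 40.6, 42.3, 39.9 and 47.3 FPKM. The co-receptor *Gfra1* stood at 52.2, 49.9, 48.9 and 62.0 FPKM, above *Ret* in each library, and *Gfra1* is also made by mesenchyme. *Wnt11*, a tip ligand, stood at 19.1, 19.5, 22.1 and 22.9 FPKM. *Lhx2* was the exception, at 0.064 to 0.40 FPKM.

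All 15 trunk and shared ureteric genes were on, against 55.0% of all protein-coding genes. *Epcam* stood at 70.0, 71.6, 81.7 and 65.3 FPKM and *Calb1*, the calcium-binding protein used to stain the ureteric tree, at 58.7, 57.4, 69.6 and 58.5 FPKM. *Wnt9b*, the bud signal that induces nephrons, was low among them at 4.84, 4.49, 3.55 and 4.63 FPKM. Of the 15 genes of collecting duct and urothelium maturation 4 were on, against 55.0% of all protein-coding genes. They were *Hsd11b2*, the enzyme that protects the mineralocorticoid receptor (18.7, 16.7, 21.2 and 19.9 FPKM), *Fxyd4*, *Scnn1b* and *Scnn1g*. The water channel *Aqp2* of principal cells and the uroplakins *Upk1b*, *Upk2* and *Upk3a* were off. These 4 of 15 are a share close to the 27.5% off over all protein-coding genes.

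Stromal genes were on almost without exception: 15 of 16 in the cortical list, 17 of 17 in the medullary and pan-interstitial list and 7 of 8 in the ureteral mesenchyme list. The share over all protein-coding genes was 55.0%. *Aldh1a2*, which makes retinoic acid, stood at 214, 217, 235 and 256 FPKM. *Meis2*, a homeobox gene, stood at a like level of 226, 238, 213 and 216 FPKM, and both genes were far above *Foxd1* in each library. The secreted guidance cue *Ntn1* stood at 31.9, 28.3, 27.1 and 46.3 FPKM and the Wnt inhibitor *Sfrp1* at 42.0, 38.1, 38.7 and 55.8 FPKM. Like *Foxd1*, both were highest in replicate 4.

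The matrix genes *Col3a1* (437, 378, 291 and 444 FPKM), *Col1a1* (309, 258, 233 and 321 FPKM) and *Col1a2* led the medullary and pan-interstitial list together with the intermediate filament gene *Vim* (357, 322, 355 and 309 FPKM). The collagens are long transcripts and were lowest in replicate 3, whereas *Vim* was not. *Zeb2* (59.2, 62.8, 43.1 and 33.1 FPKM) and *Alx1* (13.4, 11.95, 9.20 and 6.77 FPKM) were lowest in replicate 4. In the ureteral mesenchyme list *Tbx18*, the regulator of ureteral smooth muscle, stood at 11.5, 8.53, 9.38 and 4.32 FPKM, again lowest in replicate 4, and the sonic hedgehog receptor *Ptch1* at 37.4, 38.6, 28.0 and 36.0 FPKM.

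Of 15 mural genes 11 were on, against 55.0% of all protein-coding genes, and the contractile genes differed widely in level. The pericyte gene *Rgs5* stood at 37.1, 40.2, 36.3 and 31.2 FPKM and *Cspg4*, which encodes NG2, at 5.93, 5.72, 4.31 and 5.67 FPKM. *Acta2*, the smooth muscle actin, stood at 25.3, 23.2, 21.3 and 15.3 FPKM and *Tagln* at 8.99, 5.88, 11.3 and 3.95 FPKM.

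*Myocd*, the coactivator that drives the contractile programme, stood at 1.98, 1.78, 1.35 and 0.88 FPKM. *Myh11* (0.20 to 0.32 FPKM), *Lmod1* (0.12 to 0.22 FPKM) and *Cnn1* lay between on and off. *Cnn1* reached 1.07 FPKM in replicate 2 and at most 0.22 FPKM in the others. *Ren1*, the gene of renin, was the most variable of the mural genes that were on, at 1.60, 1.43, 8.91 and 2.173 FPKM. Replicate 3 was 6.22 times the lowest library, and the CV of *Ren1* was 102% as deposited and 90.6% after centring by transcript length.

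Endothelium was well represented. In the pan-endothelial list 15 of 16 genes were on, with a median level of 14.7 FPKM. *Cdh5*, the cadherin of endothelial junctions, stood at 42.6, 48.2, 34.7 and 36.0 FPKM, the Vegf receptor *Kdr* at 19.5, 20.6, 14.6 and 15.7 FPKM, and *Ramp2* at 64.0, 63.3, 77.0 and 60.1 FPKM. *Robo4* was listed at 0 in all 4 libraries, alone in its list.

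Among arterial, venous and lymphatic genes 13 of 17 were on, against 55.0% of all protein-coding genes. *Nr2f2*, a venous regulator that stroma also expresses, was far above the others at 291, 287, 266 and 309 FPKM. The venous receptor *Ephb4* (45.9, 44.5, 35.5 and 45.6 FPKM) was above its arterial ligand *Efnb2* (36.8, 33.8, 27.2 and 27.5 FPKM) in each library. The arterial genes *Gja5*, *Gja4*, *Sox17* and *Dll4* were low, with means between 2 and 8 FPKM, and *Gja5* was lower in replicates 3 and 4 (5.42 and 5.13 FPKM) than in replicates 1 and 2 (8.51 and 9.76 FPKM). Of the lymphatic genes, *Prox1* stood at 0.93 to 1.64 FPKM and *Lyve1* at 1.18 to 1.67 FPKM. *Ccl21a* was on at 5.23 to 7.73 FPKM, but 80.6% of its words of 31 bases are shared with *Gm21541*.

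**Figure D3:**
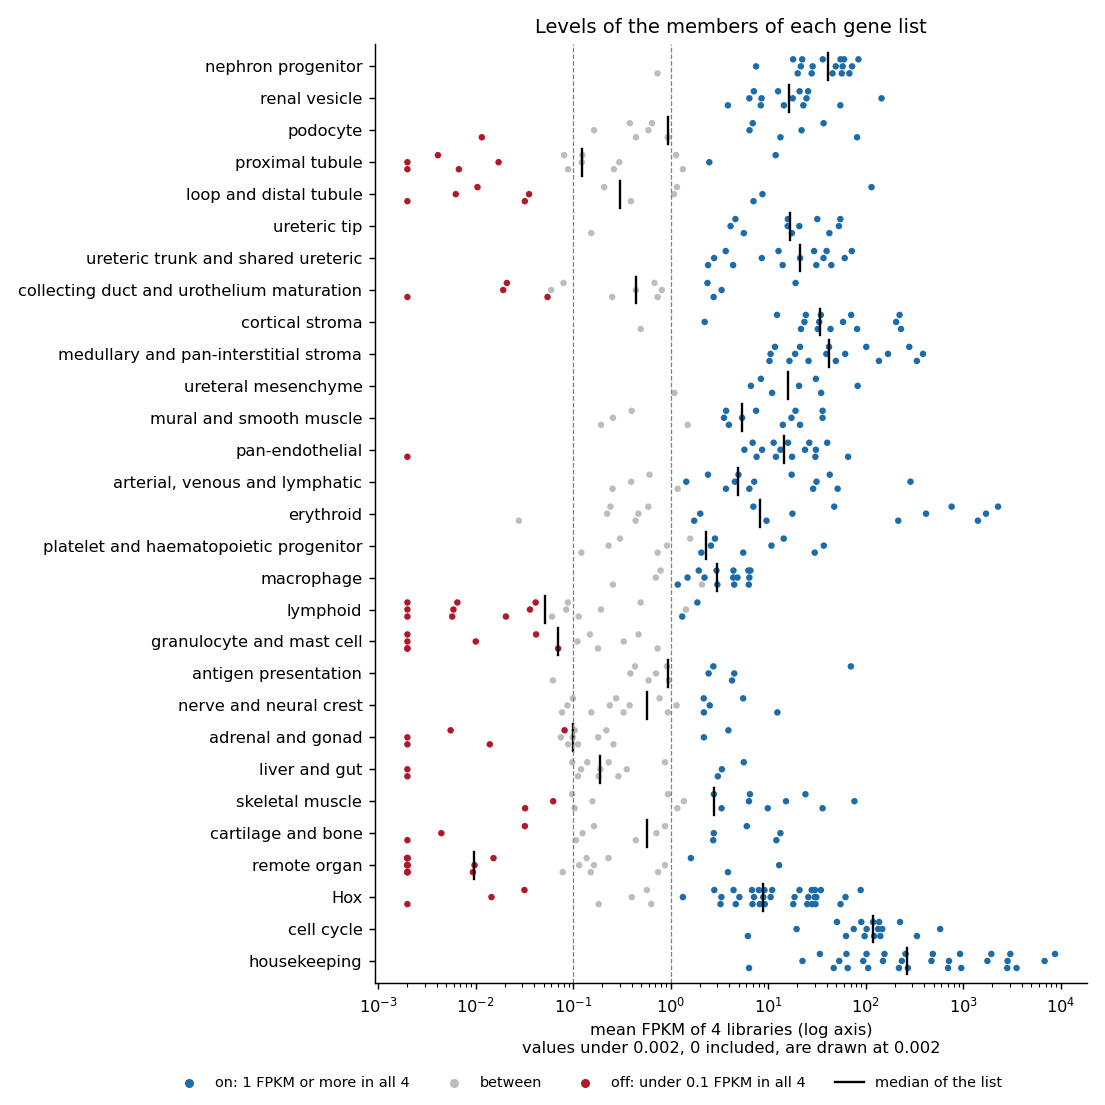
Mean FPKM over 4 libraries on a log axis (horizontal) for the members of 29 gene lists (vertical), 1 point a gene, coloured by whether it was on, between or off, with a black bar at the list median and dashed lines at 0.1 and 1 FPKM. Progenitor, bud, stromal and endothelial lists sit to the right of 1 FPKM with medians of 14.7 FPKM or more, apart from the mural list at 5.41 and the arterial, venous and lymphatic list at 4.97 FPKM, and lists of mature tubule, lymphoid cells, granulocytes and remote organs sit largely to the left.

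Globins were the most abundant genes of the blood lists. *Hba-a1* stood at 2156, 1873, 3631 and 1459 FPKM and ranked 42 of the protein-coding genes. *Hbb-y*, an embryonic beta-like globin, stood at 1625, 1568, 2398 and 1274 FPKM, and the adult genes *Hbb-bs* and *Hbb-bt* at 1202, 981, 2519 and 967 FPKM and at 666, 556, 1331 and 495 FPKM. Replicate 3 was highest and replicate 4 lowest in each of these 4 genes, and globins together made up 0.787%, 0.688%, 1.08% and 0.592% of the summed FPKM.

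Primitive red cells carry embryonic globins and are replaced during gestation by definitive cells from the fetal liver, so the set of globins was read as adult and embryonic. Embryonic *Hbb-y* and *Hbb-bh1* made up 46.8%, 50.8%, 38.6% and 46.8% of the beta-like sum, whereas embryonic *Hba-x* made up 7.40%, 8.51%, 6.65% and 7.89% of the alpha-like sum. Replicate 2 had the largest embryonic share and replicate 3 the smallest in both. Alpha-like globins summed to 0.75 ± 0.026 times the beta-like globins, a ratio that hardly moved between libraries.

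The adult copies can scarcely be told apart by their coding sequence, which is shown here for that reason. Coding sequences of *Hba-a1* and *Hba-a2* differ at 1 of 426 bases and those of *Hbb-bs* and *Hbb-bt* at 1 of 441 bases (GENCODE M21, GRCm38). Coding bases 322 to 381 of the alpha genes and 358 to 417 of the beta genes are given 5′ to 3′, with the base that differs in capitals.
Hba-a1: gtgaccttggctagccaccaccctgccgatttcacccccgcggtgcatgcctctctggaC
Hba-a2: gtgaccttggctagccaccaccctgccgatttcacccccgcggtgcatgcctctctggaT
Hbb-bs: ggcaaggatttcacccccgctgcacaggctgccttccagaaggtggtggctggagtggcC
Hbb-bt: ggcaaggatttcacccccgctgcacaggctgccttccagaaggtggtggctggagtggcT
Over whole transcripts, 71.4% of the words of *Hba-a1* and 91.0% of those of *Hba-a2* occur in another gene. The shares were lower for the beta pair, at 58.7% of the words of *Hbb-bs* and 59.4% of those of *Hbb-bt*. The split of reads between the copies is therefore uncertain, more so for the alpha pair. *Hba-a1* took 85.4%, 86.1%, 86.0% and 78.4% of the alpha pair, whose sum was 2525, 2177, 4225 and 1859 FPKM.

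Of the 18 erythroid genes analysed, globins included, 12 were on, against 55.0% of all protein-coding genes. Those other than globins were far lower than the adult globins and *Hbb-y*. *Tfrc*, the transferrin receptor of all dividing cells, stood at 46.0, 40.2, 37.2 and 67.1 FPKM, and it went against the globins in being highest in replicate 4. *Alas2*, the first enzyme of haem synthesis in red cells, stood at 10.2, 8.43, 12.7 and 7.17 FPKM. *Slc4a1*, the anion exchanger of the red cell membrane, stood at 7.84, 9.03, 8.25 and 3.11 FPKM. *Gata1*, the regulator of erythroid precursors, was at 0.13 to 0.36 FPKM. *Klf1* and *Ahsp* were not analysed here.

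Of the 14 platelet and progenitor genes 8 were on, a share close to the 55.0% of all protein-coding genes, and 5 were on with a limit of 2 FPKM. *Pf4* (11.5, 12.2, 24.9 and 9.28 FPKM), *Ppbp* (1.74, 1.95, 4.63 and 2.06 FPKM) and *Itga2b* (1.67, 2.94, 5.29 and 1.52 FPKM) were all highest in replicate 3. *Cd34*, which endothelium also makes, stood at 40.2, 40.1, 38.7 and 30.0 FPKM.

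The macrophage list had most of its members on, at low levels. Of 18 macrophage genes 14 were on, against 55.0% of all protein-coding genes. The list had a median level of 2.99 FPKM, and no gene of it exceeded 9.70 FPKM in any library. The complement genes *C1qa*, *C1qb* and *C1qc* stood at 3.81 to 9.28 FPKM, *Tyrobp* at 6.80, 5.05, 9.70 and 4.14 FPKM, and the receptor *Csf1r* at 5.31, 5.75, 3.24 and 3.35 FPKM. *Cd14* lay between, at 0.20 to 0.30 FPKM.

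Lymphoid genes were off or near it. Of 18 genes 2 were on and 9 off (55.0% and 27.5% over all protein-coding genes), and 7 lay between. *Cd3d*, *Cd3e*, *Cd3g*, *Cd8a*, *Cd8b1*, *Ms4a1*, *Ncr1* and *Rag2* were among those off. Of these, *Ms4a1* and *Ncr1* were listed at 0 in all 4 libraries. The members that were on, *Cd79b* (1.42, 1.96, 2.63 and 1.52 FPKM) and *Ighm* (1.15, 1.55, 1.54 and 1.02 FPKM), encode parts of the B cell receptor. Of 13 granulocyte and mast cell genes none was on and 7 were off, against 55.0% and 27.5% of all protein-coding genes. *S100a8* and *S100a9* were highest in replicate 4, at 1.59 and 0.89 FPKM, against at most 0.55 FPKM in the others.

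Of the 12 antigen presentation genes 5 were on, against 55.0% of all protein-coding genes. Levels were low, apart from *B2m*, the common light chain of class I molecules, at 67.1, 65.6, 92.1 and 57.4 FPKM. The class I heavy chains *H2-D1* and *H2-K1* stood at 1.31 to 4.78 FPKM. The transporter *Tap1*, the proteasome subunits *Psmb8* and *Psmb9* and the activator *Nlrc5* were under 1 FPKM in every library.

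Genes of tissues next to the kidney were read in the same way. Of the 17 skeletal muscle genes 9 were on, a share close to the 55.0% of all protein-coding genes, *Des* of the mural list included, among them *Mylpf* (103, 80.7, 61.5 and 62.5 FPKM), *Actc1* (38.1, 19.9, 19.1 and 19.5 FPKM) and the myogenic regulator *Myog* (5.62, 2.61, 2.76 and 2.34 FPKM). The summed list was 243, 173, 149 and 177 FPKM, and after centring by transcript length replicate 1 was highest in 7 of the 9 genes. *Tnnc2* (10.3, 2.28, 3.60 and 9.28 FPKM) shares 67.6% of its words with transcripts of its neighbour *Ube2c*, itself at a mean of 201 FPKM, so its level is uncertain.

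Of the 15 liver and gut genes 3 were on, against 55.0% of all protein-coding genes, 10 lay between and 2 were off. The 3 that were on are liver genes, stood at a few FPKM and were again highest in replicate 1. *Afp* stood at 9.51, 2.92, 7.17 and 2.91 FPKM, *Alb* at 6.203, 1.69, 3.27 and 2.26 FPKM and *Apoa2* at 4.81, 1.75, 3.74 and 1.91 FPKM. Replicate 1 was highest in all 3, followed by replicate 3. The gut regulator *Cdx2* was listed at 0. Of the 14 cartilage and bone genes 5 were on, against 55.0% of all protein-coding genes. They were led by *Hapln1* (10.9 to 15.8 FPKM) and *Col2a1* (9.16 to 13.7 FPKM), while *Acan*, the proteoglycan of mature cartilage, was off.

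Adrenal and gonadal genes were mostly low or off, with a median level of 0.099 FPKM. Of 15 genes 2 were on and 5 off (55.0% and 27.5% over all protein-coding genes), and 8 lay between. The 2 that were on were *Fgf9* (3.14 to 4.99 FPKM), which nephron progenitors and ureteric cells also make, and the corticotropin receptor *Mc2r* (1.96 to 2.35 FPKM). The steroidogenic genes did not accompany *Mc2r*: *Cyp17a1* and *Cyp21a1* were listed at 0, *Cyp11b1* and *Nr5a1* were off, and *Star* and *Cyp11a1* were at 0.052 to 0.39 FPKM. Nerve and neural crest genes were low, with 5 of 16 on against 55.0% of all protein-coding genes, led by *Stmn2* (10.6, 7.95, 17.2 and 14.1 FPKM). *Dbh*, the enzyme that makes noradrenaline, stood at 0.068, 0.058, 0.11 and 3.51 FPKM, so it passed 1 FPKM in replicate 4 alone. *Th*, which acts earlier in the same synthesis, was also highest in replicate 4, at 0.35 FPKM, and no more than 0.12 FPKM in the others.

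Genes of remote organs were mostly off, with exceptions, and the limit for off was not set from them. Of the 26 genes analysed, 15 were off and 3 on (27.5% and 55.0% over all protein-coding genes), and 8 lay between. The median level was 0.0096 FPKM. The hormones and surfactant genes *Ins1*, *Ins2*, *Prl* and *Sftpb* and the lens crystallins *Cryaa* and *Crygd* were among those listed at 0. The 3 that were on, *Krt10* (11.3, 12.4, 16.2 and 12.02 FPKM), *Mbp* (4.18, 3.95, 3.53 and 3.83 FPKM) and *Cpa1* (1.40, 1.84, 1.68 and 1.54 FPKM), were even between libraries.

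Hox genes, which record position along the body axis, ended sharply. Of 39 genes 32 were on and 3 off (55.0% and 27.5% over all protein-coding genes), and 4 lay between. Summed FPKM was 186 ± 5.25 in paralogue group 10 and 90.4 ± 2.46 in group 11. It dropped to 6.87 ± 0.56 in group 12 and 0.99 ± 0.43 in group 13. Toward the front of the clusters the sum was 2.15 ± 0.26 FPKM in group 1 and 28.5 ± 3.56 FPKM in group 2.

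The highest single genes were *Hoxa10* (84.7, 86.6, 95.7 and 88.7 FPKM), *Hoxc10* (60.4, 59.9, 61.6 and 66.9 FPKM) and *Hoxd11* (52.8, 55.9, 56.2 and 56.3 FPKM). *Hoxa11* stood at 26.9, 27.7, 29.7 and 27.6 FPKM, and *Hoxa11* and *Hoxd11* are known to be needed together for kidney development. *Hoxb13*, *Hoxc13* and *Hoxc12* were off. As deposited, Hox genes had a median CV of 7.81% over the 32 genes that were on, against 10.9% over all protein-coding genes that were on. After centring by transcript length it was 9.27% against 9.18%, and without replicate 3 it was 8.05% against 6.27%, so the Hox genes were not more even than the rest once the tilt of replicate 3 was set aside.

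**Figure D4:**
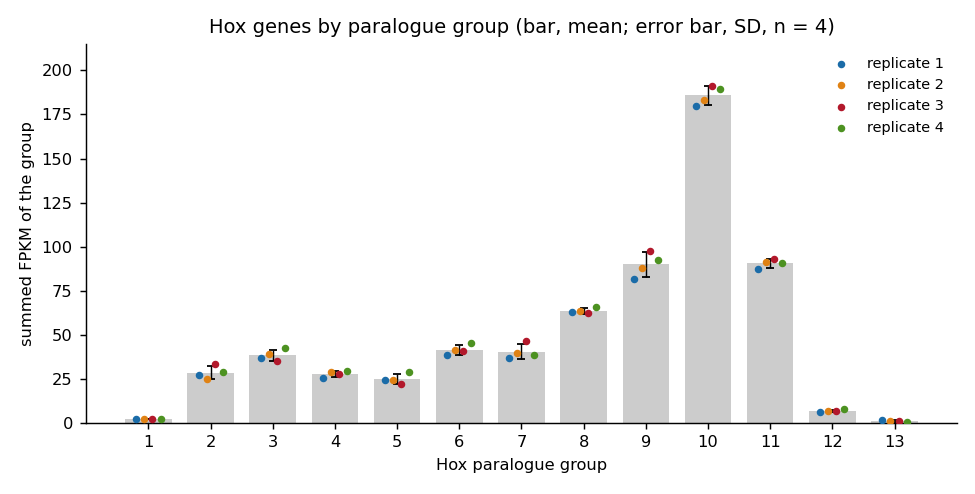
Summed FPKM of the Hox genes of each paralogue group (bars, mean; error bars, SD, n = 4; points, the 4 replicates), with the paralogue group on the horizontal axis. The sum is highest in group 10, at 186 FPKM, and is 0.99 FPKM in group 13.

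Cell cycle genes were all on, as was the housekeeping list. The 17 cell cycle genes had a median level of 119 FPKM. *Pcna* (307, 333, 399 and 305 FPKM) and *Top2a* (234, 238, 201 and 228 FPKM), markers of DNA replication and of dividing cells, were high, and so was the cell cycle inhibitor *Cdkn1c* at 571, 567, 607 and 581 FPKM. *Cdkn1a*, another inhibitor, was at 5.43 to 6.99 FPKM. The 30 housekeeping genes ranged from a mean of 6.38 FPKM for *Emc7* to 8766 FPKM for *Eef1a1*, and none was listed at 0 in any library.

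The most abundant entries were dominated by mitochondrial, ribosomal and histone transcripts. The entry with the highest value in every library was *mt-Atp8*, at 30579, 29416, 31162 and 29246 FPKM. Its transcript is 204 bases long, and how scaling by length acts on so short a transcript was not tested. Ranks by FPKM of the shortest entries are therefore uncertain. The 100 highest entries held 33.6%, 33.7%, 39.3% and 34.3% of the summed FPKM. Cytosolic ribosomal protein genes took 16.1%, 16.3%, 20.4% and 17.1%, histones 6.18%, 6.07%, 7.74% and 6.69%, and mitochondrially encoded genes 6.25%, 5.85%, 5.15% and 5.69%. Nuclear genes of the respiratory chain took 2.65 ± 0.24% and collagens 0.19 ± 0.043%. Replicate 3 was the highest in the ribosomal, histone and respiratory chain shares and the lowest in the collagen and mitochondrial shares.

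Of the 20 highest entries 6 are typed as pseudogenes. *Gm12895*, a processed pseudogene of 226 bases on chromosome 4 from 122455210 to 122455435, was second overall at 6473, 6941, 24180 and 8740 FPKM. Of its 196 words, 194 also occur in *Gm12896*, an entry listed at 0. The other 5, *Gm28661*, *Gm10222*, *Gm28437*, *Gm10925* and *Gm28438*, lie side by side on chromosome 1 between 24612407 and 24615565 on the minus strand. Together they held 3.30%, 3.21%, 3.06% and 3.03% of the summed FPKM, and every word of 4 of them, and 312 of the 315 words of *Gm28438*, also occur in a mitochondrial gene.

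The values of these loci and of mitochondrial genes were split unevenly between identical or nearly identical sequences. *Gm10925* matches *mt-Atp6* at all 678 compared bases and *Gm28661* matches *mt-Co2* at all 681. The first 60 bases of both pairs are given 5′ to 3′, with no capitals because no base differs.
mt-Atp6 and Gm10925: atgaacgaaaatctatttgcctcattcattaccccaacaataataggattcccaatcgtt
mt-Co2 and Gm28661: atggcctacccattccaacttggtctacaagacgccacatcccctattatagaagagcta
Entry *mt-Co2* was listed at 0, 5.72, 5.59 and 17.4 FPKM, while *Gm28661* stood at 5708, 5120, 5864 and 4156 FPKM. Likewise *mt-Atp6* took 6.61%, 5.26%, 8.09% and 6.78% of the sum with *Gm10925*, which was 7409, 7049, 7965 and 7693 FPKM. For *mt-Nd3*, which differs from *Gm28438* at 1 of 345 compared bases, the share was 39.5%, 35.7%, 42.3% and 47.8% of the sum with *Gm28438*. The split within the identical pairs cannot be read as levels of the separate loci, and the share of mitochondrially encoded genes given above does not include what the chromosome 1 entries hold.

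Among the genes named by rank, the housekeeping genes *Eef1a1* (8276, 8422, 10065 and 8301 FPKM) and *Actb* (7325, 7249, 7060 and 5764 FPKM) followed the leading mitochondrial and pseudogene entries. *Ptma* (3632 ± 319 FPKM), *Tpt1*, the ribosomal genes *Rpl18* and *Rpl41* and the histone entries *H4c12*, *Hist1h4m*, *H2bc18* and *H4c8* completed the 20 with *Ccnb1ip1*, *mt-Co1* and *mt-Nd3*. *Ccnb1ip1*, a gene known for meiotic recombination, stood at 2156, 3273, 6521 and 4410 FPKM. It shares 1.46% of its words with other protein-coding or pseudogene transcripts. Noncoding transcripts were not searched, so this share cannot tell whether the value comes from messenger RNA of this gene.

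Spread between the libraries was small for most genes. Over the 12343 protein-coding genes averaging 1 FPKM or more, the median CV was 11.2%. It was 9.41% after centring by transcript length and 6.49% without replicate 3. A CV under 20% was found for 82.6% of these genes, and 5.04% differed more than 2-fold between the highest and the lowest library. The median CV was 13.8% for genes of 1 to 10 FPKM, 9.81% for 10 to 100, 11.2% for 100 to 1000 and 22.5% for the 134 genes above 1000 FPKM. Without replicate 3 the last of these was 4.07%.

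Among the 7946 protein-coding genes averaging 10 FPKM or more, *Cpped1* had the smallest CV, at 0.13% (14.1 FPKM in each library but replicate 4, at 14.0), and *Ptms*, *Sclt1*, *Tm9sf3*, *Arhgap42*, *Klhl9*, *Zfp24*, *Slc35b4* and *Cep78* were among the next, all at or under 0.68%. The largest CV belonged to *Snurf*, at 20.9, 0, 10.7 and 53.9 FPKM, all of whose words of 31 bases also occur in *Snrpn*. *Hmga1b* (124, 0.098, 171 and 68.1 FPKM) shares 92.7% of its words with *Hmga1*, and *Gm14295* (7.85, 9.49, 40.9 and 8.38 FPKM) 85.0% with other genes. *Ccdc120*, *Aacs*, *Sipa1*, *Sidt2*, *Nckipsd*, *Afap1l2* and *Sorl1* made up the rest of the 10 most variable, with CVs of 73.4% to 88.6%. Of these, *Sorl1* stood at 7.33, 25.5, 8.48 and 7.28 FPKM and *Nckipsd* at 51.5, 25.2, 2.70 and 26.9 FPKM.

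The lists did not vary together between libraries. After centring by transcript length, replicate 4 was the highest of the 4 in 11 of 17 nephron progenitor genes, 8 of 11 ureteric tip genes and 18 of 32 Hox genes that were on, against 25.2% of all protein-coding genes that were on. It was the lowest in 9 of 14 renal vesicle, 9 of 15 ureteric trunk and 10 of 15 pan-endothelial genes, against 24.4% of all. The same held for 9 of 12 erythroid and 8 of 14 macrophage genes. The erythroid genes include globins, with the pairs *Hba-a1* and *Hba-a2*, and *Hbb-bs* and *Hbb-bt*, nearly identical in coding sequence. Members of a pair are not independent, so the erythroid count holds a shared globin signal repeatedly. The median log2 ratio of replicate 4 to the geometric mean of the 4 libraries was 0.17 for nephron progenitor and 0.14 for ureteric tip genes, −0.14 for renal vesicle, −0.20 for pan-endothelial and −0.36 for erythroid genes.

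Replicate 3 was the highest in 10 of 12 erythroid and 9 of 14 macrophage genes, against 33.1% of all, with median log2 ratios of 0.34 and 0.31. This erythroid count also includes the globin pairs, so its members are not independent. Replicate 1 was the highest in 7 of 9 skeletal muscle genes, the 3 liver genes that were on and 9 of 17 medullary and pan-interstitial genes. The share over all was 22.3%. Its median log2 ratio was 0.57 for muscle and 1.02 for these 3 liver genes. After centring, cell cycle and housekeeping lists stayed within 0.023 of 0 in every library. Centring itself sets the median of protein-coding genes averaging 10 FPKM or more to 0 in each length class. As deposited, the medians of these lists in replicate 3 were 0.076 and 0.13. After centring, replicate 3 was the highest in 7 of 17 cell cycle and 14 of 30 housekeeping genes, against 33.1% of all. Whether the differences between libraries follow the age of the embryo, the cut of the dissection or the number of cells was not tested.

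**Figure D5:**
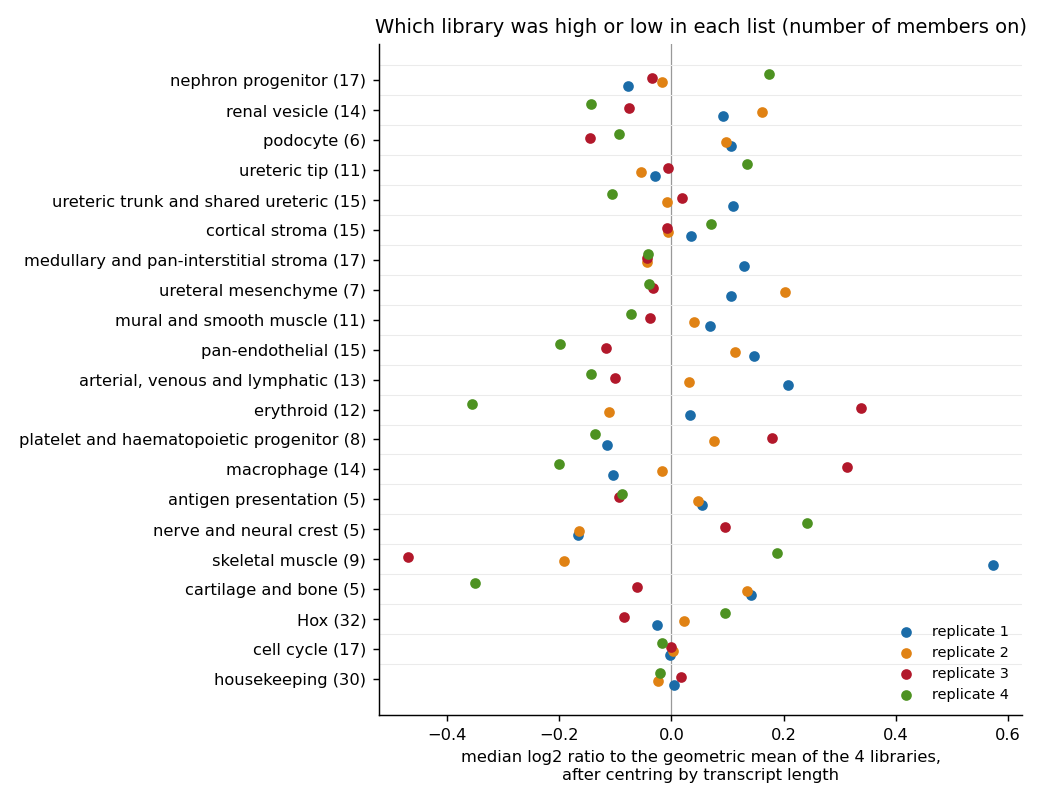
Median log2 ratio of each library to the geometric mean of the 4 libraries, after centring by transcript length (horizontal axis), for lists with at least 5 members on (vertical axis, number of members in brackets), 1 coloured point a replicate. Replicate 4 is highest for nephron progenitor and ureteric tip genes and lowest for erythroid, macrophage and pan-endothelial genes, replicate 1 is highest for skeletal muscle at 0.57, and cell cycle and housekeeping lists lie near 0 in every library.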

How the data were processed

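Total RNA of whole E13.5 kidneys was sequenced by the study. According to its methods and processing notes (GRCm38, bcl2fastq 2.17.1.14, Salmon), the authors estimated transcript abundance against an index of coding sequences, imported it to genes with tximport and deposited FPKM; how these were scaled is not given in the sources used here, and median-of-ratios factors computed from them were 1.00 over 17443 entries. Low values of single-transcript genes of 2000 bases or more sat within 20% of 1 step for 96.5% to 99.2% of values multiplied by whole transcript length, against 37.4% to 45.2% by coding length, and 12904 entries are pseudogenes, so lengths here are of whole transcripts.

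The 4 wild-type columns were read as deposited, in Python 3.11.15 with pandas 2.3.3, and 0 columns of the table lacked a sample. Symbols were typed by GENCODE M21 (34335 entries), then RefSeq (810 entries), and 518 stayed untyped. Of entries that share a symbol the highest was used, which among list genes concerned *Ccl21a* and *Sftpb*. Genes were named if they belong to 1 of 30 lists of marker genes, to the 20 entries with the highest mean, or to the 10 largest or smallest CVs among protein-coding genes of at least 10 FPKM. From each list the highest, the off and the most variable members, and those that define a cell type, were written out. Some genes of these sets are counted but not reported here by name. Members and lists were chosen with earlier results of these data known. Centring subtracted each library's median log2 deviation in 10 classes of transcript length, a step tested on simulated libraries. Shared sequence is the share of exact 31-base words found on either strand in other genes' GENCODE M21 transcripts typed as protein coding or pseudogene. Transcripts of other types were not searched. Whether counting used strand is not given in the sources used here. Alternatives were other limits for on and off, rescaling, other measures of spread and leaving out each library. Centring and a restriction to transcripts of 2000 to 3000 bases were chosen after seeing the data.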

Additional observations from a re-analysis of the deposited data

Results flagged for a closer look

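In 383 sets of 4 values (list sums, family shares, list genes averaging 1 FPKM or more and the genes named by rank or spread), 1 library stood far from the other 3 in 50 (its gap to the nearest, as a share of the range, was past Dixon's 95% critical value for 4 samples), and it was replicate 3 in 36 of them. Chance gives about 1 set in 20 only where sets are independent and not chosen by their spread. Here list sums hold genes that were also looked at singly, and some genes were picked for a large or small CV. The 50 sets therefore cannot be set against that rate. Over all 12343 protein-coding genes averaging 1 FPKM or more the same held for 11.3%, with replicate 3 apart in 1111 of 1393 genes.

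Replicate 3 stood above the others in the summed FPKM of all entries (1002638) and in the summed sex-linked genes (96.1 FPKM), among them *Eif2s3y* (36.2), *Ddx3y* (30.5), *Uty* (14.9) and *Kdm5d* (14.4 FPKM). It was above the others in kidney and vessel genes *Calb1* (69.6), *Hoxb7* (36.3) and *Ren1* (8.91 FPKM), and in the blood genes *Hbb-bs* (2519), *Ppbp* (4.63) and *Lyz2* (8.88 FPKM). The same held for the highly expressed genes *Gm12895* (24180), *Eef1a1* (10065), *Rpl18* (8507), *H4c12* (5844), *H2bc18* (4680), *Tpt1* (4501), *Ptma* (4104), *Ppia* (3671) and *Gapdh* (3141 FPKM). Further such genes were *Psmb4* (891), *Snrpd3* (274), *Psmb2* (191), *Reep5* (136), *Vps29* (83.5), *Hprt* (69.7), *Chmp2a* (60.2) and *Gm14295* (40.9 FPKM). Replicate 3 stood below the others in *Mki67* (75.6), *Polr2a* (49.5), *Nrp1* (46.5), *Pax2* (45.5), *Ephb4* (35.5) and *Cspg4* (4.31 FPKM).

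Replicate 4 stood above the others in summed ureteric tip genes (295 FPKM against 255 to 260), in *Etv4* (63.2 FPKM) and in *Ccdc120* (37.0 FPKM), and below them in *Actb* (5764), *Cd34* (30.0) and *Irx1* (0.47 FPKM). Replicate 1 stood above them in *Actc1* (38.1), *Aplnr* (40.6) and *Myog* (5.62 FPKM) and below them in *Hoxd11* (52.8 FPKM). Replicate 2 stood above them in *Afap1l2* (33.8), *Hoxd8* (31.3), *Sorl1* (25.5) and *Arhgap42* (19.4 FPKM).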

How the results depend on the processing

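Of the alternatives for the main counts and shares, 49 stayed within 1.5 times the reported count or spread, or within 1 SD of the reported share, and 2 did not. Counting protein-coding entries only left 5976 off in place of 16593, because fewer entries were counted. Leaving out 1 library in turn gave a median CV of 6.49% to 11.8%, the lowest without replicate 3, in place of 11.2%. Counts of entries on were then 12472 to 12502. With limits of 0.5 and 2 FPKM 13383 and 11360 entries were on. Rescaling each library to the same total gave 12572 entries on and a median CV of 14.7%. For single lists and ranks, 589 alternatives stayed within that range and 47 did not, of which 15 and 10 came from the 2 other limits for off, since most lists hold few off genes. No paired analysis was possible because only 1 group was described and no test between groups was made. FPKM carry no counts, so depth was only estimated, and 1 fragment is worth 0.0173 to 0.0188 FPKM at 2000 bases.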
